A study of Mus musculus with 8 samples.

Results

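The Egr, Klf, Nr4a and Ier early genes described here are 10 named genes: Egr1, Egr2, Egr3, Klf2, Klf4, Klf6, Nr4a1, Nr4a2, Ier2 and Ier3. They were chosen by name with earlier results of these libraries known, among them a higher level of Ier3 and of early genes as a list in one of the sorted fractions, so the comparison of the fractions is given below as a description. All 10 were found among the 27554 genes of the count table, and all 10 were among the 11730 genes that passed the filter on low counts.

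RNA was sequenced from muscle stem cells of mouse hindlimb muscle in 8 libraries, 2 for each combination of sex and sorted fraction, and each library came from a pool of 4 mice. All groups were C57BL/6NTac mice that carried Pax7tm3955(T2A-ZsGreen)Tac together with Myf5tm3956(T2A-E2Crimson)Tac. ZsGreen reports Pax7, the transcription factor of muscle stem cells. E2Crimson reports Myf5, which drives the muscle lineage. The groups were female Myf5High, female Myf5Low, male Myf5High and male Myf5Low, where high and low are the extremes of E2Crimson brightness among Pax7-positive cells. No group had a treatment, and the ages of the mice and the time from dissection to lysis are not given in the sources used here.

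Immediate early genes are transcribed within minutes of a stimulus without new protein synthesis, from factors such as SRF, CREB and MEF2 that already sit in the cell. Egr genes encode zinc-finger activators, Klf genes encode Krüppel-like zinc-finger factors, Nr4a genes encode orphan nuclear receptors that need no ligand, and Ier2 and Ier3 encode small regulators of transcription and of cell survival. In muscle stem cells these genes are known to respond to injury and growth factors, and also to the dissociation of muscle into single cells. A level in a bulk library cannot tell fewer expressing cells apart from less RNA per cell.

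The labelled cells were checked against their markers, since the early genes are expressed in many cell types. Pax7 was at 1001 to 1498 normalised CPM in all 8 libraries, a unit that divides a gene's reads by the TMM-scaled total of its library. In females Myf5 RNA was at 116 to 128 CPM in the Myf5High libraries and at 25.0 to 49.9 CPM in the Myf5Low ones, with no overlap. In males it overlapped: the library labelled male Myf5High replicate 2 had 39.5 CPM, below the 41.9 CPM of male Myf5Low replicate 1. Male Myf5High replicate 1 stood apart in another way, with 735 CPM over 12 genes of myogenic commitment against 146 to 203 CPM in the other 3 Myf5High libraries, and with the highest mitochondrial share, 2.82% of gene counts. Most of the 735 CPM came from the sarcomere genes Actc1 (299.7 CPM) and Myh3 (175 CPM), while Myog and Mymk, genes of differentiation and fusion, were at 0 there and Myod1 was at 53.3 CPM, within the 21.0 to 73.7 CPM of the other Myf5High libraries. Gene counts ran from 3140361 to 4238427 per library, so a gene with 3 counts would read 0.672 to 0.986 CPM, and every one of the 10 genes was above this in every library (lowest count 18, for Egr3).

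The promoters of Nr4a1 and Nr4a2 are shown because these are the genes whose levels differed between the sexes. Each window runs from 250 bases before a RefSeq transcript start to 50 bases after it (GRCm38.p6), read 5′ to 3′ along the gene's strand. Capitals mark the short cAMP response element (CRE) site, TGACG or its complement CGTCA, which the transcription factor CREB is known to bind. The motif and the windows were picked after the values had been seen.
Nr4a1, chr15:101266596-101266895, plus strand: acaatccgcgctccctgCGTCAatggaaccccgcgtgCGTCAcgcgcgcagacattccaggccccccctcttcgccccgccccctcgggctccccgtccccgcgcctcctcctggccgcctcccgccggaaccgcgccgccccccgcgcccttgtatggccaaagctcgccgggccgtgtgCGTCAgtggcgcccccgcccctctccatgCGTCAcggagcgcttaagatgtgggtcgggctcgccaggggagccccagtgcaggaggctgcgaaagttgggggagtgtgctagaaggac
Nr4a2, chr2:57123954-57124253, minus strand: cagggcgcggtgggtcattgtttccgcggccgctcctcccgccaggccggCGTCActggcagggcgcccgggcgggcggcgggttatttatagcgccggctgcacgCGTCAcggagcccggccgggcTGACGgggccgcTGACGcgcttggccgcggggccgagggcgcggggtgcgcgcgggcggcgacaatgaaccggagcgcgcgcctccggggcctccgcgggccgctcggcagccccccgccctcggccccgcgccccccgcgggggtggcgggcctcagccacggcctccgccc

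Both windows held 4 short CRE sites. Counted from the transcript start, their first bases lay at -233, -213, -69 and -40 in Nr4a1, and at -200, -144, -123 and -111 in Nr4a2. Of 32851 mouse promoter windows of 300 bases, 20.8% held at least 1 short CRE site on either strand and 0.231% held 4 or more. Windows were found for 7 of the 10 genes. Klf2 and Klf4 had 1 short CRE site each, Egr2 had 2 in some of its windows, and Klf6 and Ier3 had 0. The full CRE, TGACGTCA, which contains both short forms, was in 1.79% of all windows and in 0 of the 7 genes. The CArG box, the site of SRF, was in 1.63% of all windows and in Egr2 alone among the 7. The AP-1 site TGANTCA (7.81% of all windows) and the NBRE AAAGGTCA, the site that Nr4a receptors are known to bind (1.51%), had no match in the 7. The Egr site GCGNGGGCG (5.55% of all windows) matched in 4 of the 7, Nr4a1, Nr4a2, Klf2 and Klf4. TATAAA (13.6%) matched in Nr4a2 alone. Each motif was searched on both strands. A match is a run of letters and not a measured binding site.

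Egr1 was by far the most abundant of the 10 by transcript length. Compared per kilobase of exon, its mean over the 8 libraries was 1805 ± 581 CPM per kb (SD, n = 8), above 99.9% of the genes tested. Ier3 followed at 437 ± 208, Klf4 at 390 ± 160, Klf6 at 179 ± 52.5 and Ier2 at 109 ± 39.2 CPM per kb. Nr4a1 at 35.9 ± 24.7, Klf2 at 34.7 ± 15.3, Nr4a2 at 21.8 ± 15.9 and Egr2 at 18.3 ± 6.90 CPM per kb were lower. Egr3, a factor needed for the formation of muscle spindles, was lowest at 3.44 ± 1.74 CPM per kb, above 44.6% of the genes tested. Egr1 took 0.514 to 1.17% of all gene counts on its own, and the 10 genes together took 0.726 to 1.56%.

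**Figure D1:**
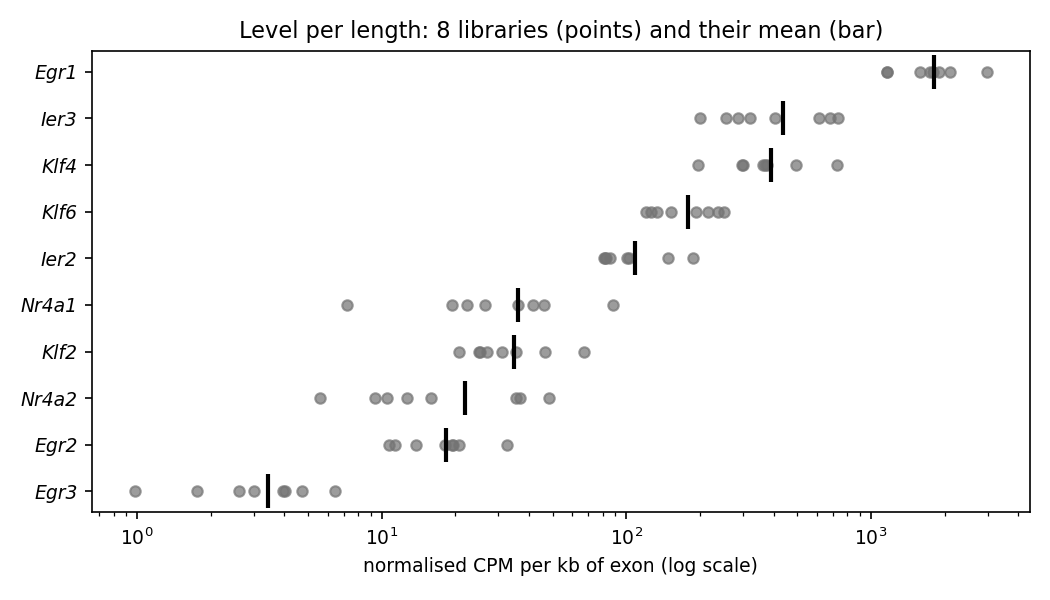
Level per length of the 10 genes. The x axis is normalised CPM per kilobase of exon on a log scale, each point is 1 of the 8 libraries and the bar is their mean. The ranges of Egr1 and Ier3, and those of Egr2 and Egr3, do not overlap, and every other pair of neighbours overlaps.

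Neighbours in that order were compared over the libraries. The range of Egr1 lay above that of Ier3, and the range of Egr2 above that of Egr3. The other 7 pairs of neighbours overlapped in their ranges. Within single libraries, Klf4 was above Klf6, Klf6 above Ier2 and Ier2 above Nr4a1 in all 8. Ier3 was above Klf4 in 6 of 8 libraries and Klf2 above Nr4a2 in 7 of 8, whereas Nr4a1 was above Klf2 in 3 of 8 and Nr4a2 above Egr2 in 4 of 8, so these last 2 pairs had no steady order.

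Between the sexes, the Nr4a genes stood out. Nr4a1 and Nr4a2 were higher in females than in males, by 2.76-fold and 3.46-fold on average over both fractions, and no other gene of the 10 passed the test. In the edgeR fit 2 of 10 genes were therefore called, both higher in females, where 1.65% of all tested genes (194 of 11730) were called. The median log2 fold change of the 10, female minus male, was 0.39, against -0.02 over all genes tested.

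Nr4a2, also called Nurr1, is an orphan nuclear receptor known for its part in dopamine neurons and induced as an early gene in many tissues. In females it was at 196 and 149 CPM in the Myf5High libraries and at 64.3 and 143 CPM in the Myf5Low ones. In males these levels were 38.2 and 42.7 CPM, and 22.6 and 51.6 CPM. All 4 female libraries were above all 4 male libraries. On the log2 scale females were higher by 1.79, with an SE of 0.28, a 95% interval of 1.24 to 2.34 and an edgeR adjusted p of 0.00161. The call held in each of 8 fits that left out 1 library, with log2 fold changes of 1.44 to 2.14.

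Nr4a1, also called Nur77, is the orphan receptor of the family that is known in muscle for its link to metabolism and growth. In females it was at 311 and 161 CPM in the Myf5High libraries and at 126 and 146 CPM in the Myf5Low ones. In males these levels were 78.5 and 25.3 CPM, and 67.9 and 92.5 CPM. Here too every female library was above every male library, and the extremes were both Myf5High libraries. On the log2 scale the difference was 1.47, with an SE of 0.29, a 95% interval of 0.90 to 2.03 and an edgeR adjusted p of 0.0115. Without female Myf5High replicate 1 it was 1.18 and was no longer called (edgeR adjusted p 0.0556), and it was called in the other 7 fits with 1 library left out.

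Both calls were also made without each of the male libraries that stood apart. Without male Myf5High replicate 2, whose Myf5 RNA was low for its label, Nr4a1 was higher in females by 1.18 (log2, edgeR adjusted p 0.00851) and Nr4a2 by 1.83 (0.00111). Without male Myf5High replicate 1, the log2 fold change of Nr4a1 was 1.99 (edgeR adjusted p 7.90e-05) and that of Nr4a2 was 1.75 (0.00164). When the counts of the 2 libraries of each pool were summed, leaving 2 female against 2 male pools, the values were 1.41 (edgeR adjusted p 0.00321) and 1.80 (0.00129).

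The difference was then taken within each fraction. Within Myf5High, Nr4a1 was higher in females by 2.17 (log2, SE 0.41) and Nr4a2 by 2.09 (SE 0.40), both with an edgeR adjusted p of 0.0217, so 2 of 10 genes were called where 0.512% of all genes were. Without male Myf5High replicate 2, which had the lowest Nr4a1 level, these values were 1.59 (edgeR adjusted p 0.0458) and 2.18 (0.0279), and without male Myf5High replicate 1 they were 3.22 (0.00031) and 2.01 (0.0341). Without female Myf5High replicate 1 they were 1.61 (edgeR adjusted p 0.27) and 1.86 (0.143), and neither was called. Within Myf5Low, Nr4a1 differed by 0.76 (edgeR adjusted p 0.743) and Nr4a2 by 1.49 (edgeR adjusted p 0.231), and 0 of 10 genes were called where 0.205% of all genes were. Leaving out 1 Myf5Low library gave 0.56 to 1.00 for Nr4a1 and 0.80 to 2.19 for Nr4a2, with no call. That these differences themselves differ between the fractions did not pass the test of the interaction given further on.

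**Figure D2:**
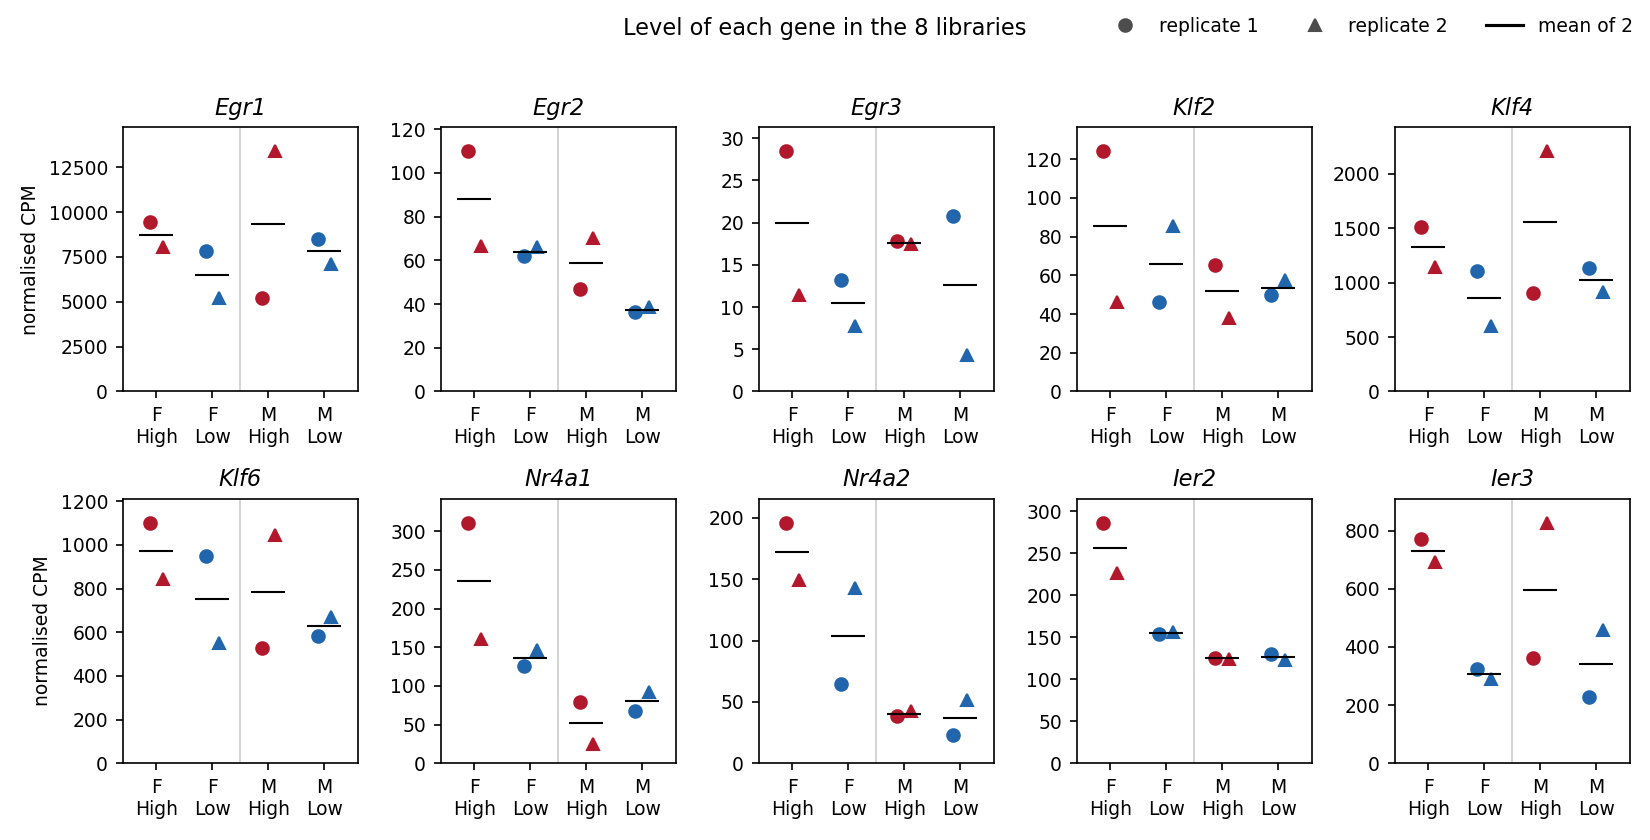
Normalised CPM of each of the 10 genes in the 8 libraries, on linear axes that start at 0. F and M are female and male, High and Low are the sorted fractions, circles and triangles are replicates 1 and 2, and the line is the mean of 2. Nr4a1, Nr4a2 and Ier2 are the genes whose 4 female libraries all lie above the 4 male ones.

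Ier2, a nuclear regulator of transcription, also had female libraries entirely above male ones. In females it was at 286 and 226 CPM in the Myf5High libraries and at 153 and 156 CPM in the Myf5Low ones. In males these levels were 126 and 124 CPM, and 130 and 123 CPM. The male libraries lay within a few CPM of each other, and the female Myf5High pair was the highest. Its 1.58-fold difference, 0.66 on the log2 scale with an SE of 0.18, did not pass (edgeR adjusted p 0.0647). Within Myf5High it was 1.04 (edgeR adjusted p 0.0741) and within Myf5Low 0.29 (edgeR adjusted p 0.868). With Nr4a1 and Nr4a2 it made 3 of 10 genes that did not overlap with females higher, where 3.59% of all genes had that order.

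The other 7 genes were not called between the sexes. Egr2, a zinc-finger factor known from Schwann cells, differed by 0.68 on the log2 scale (SE 0.23, edgeR adjusted p 0.17), with 61.8 to 110 CPM in females and 36.3 to 70.4 CPM in males. Klf2, known for its part in quiescent endothelium and lymphocytes, had 0.51 (SE 0.29, edgeR adjusted p 0.472). Klf6 had 0.28 (SE 0.22) and Ier3 0.07 (SE 0.25). Leaving out 1 library gave 0.056 (without female Myf5High replicate 1) to 0.78 for Klf2 and 0.048 (without female Myf5Low replicate 1) to 0.57 for Klf6. Egr3, Egr1 and Klf4 had values below 0, of -0.05 (SE 0.44), -0.18 (SE 0.24) and -0.24 (SE 0.25). The 95% intervals of Egr1 (-0.65 to 0.30), Klf4 (-0.73 to 0.25) and Ier3 (-0.41 to 0.55) leave out a 2-fold difference in either direction.

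**Figure D3:**
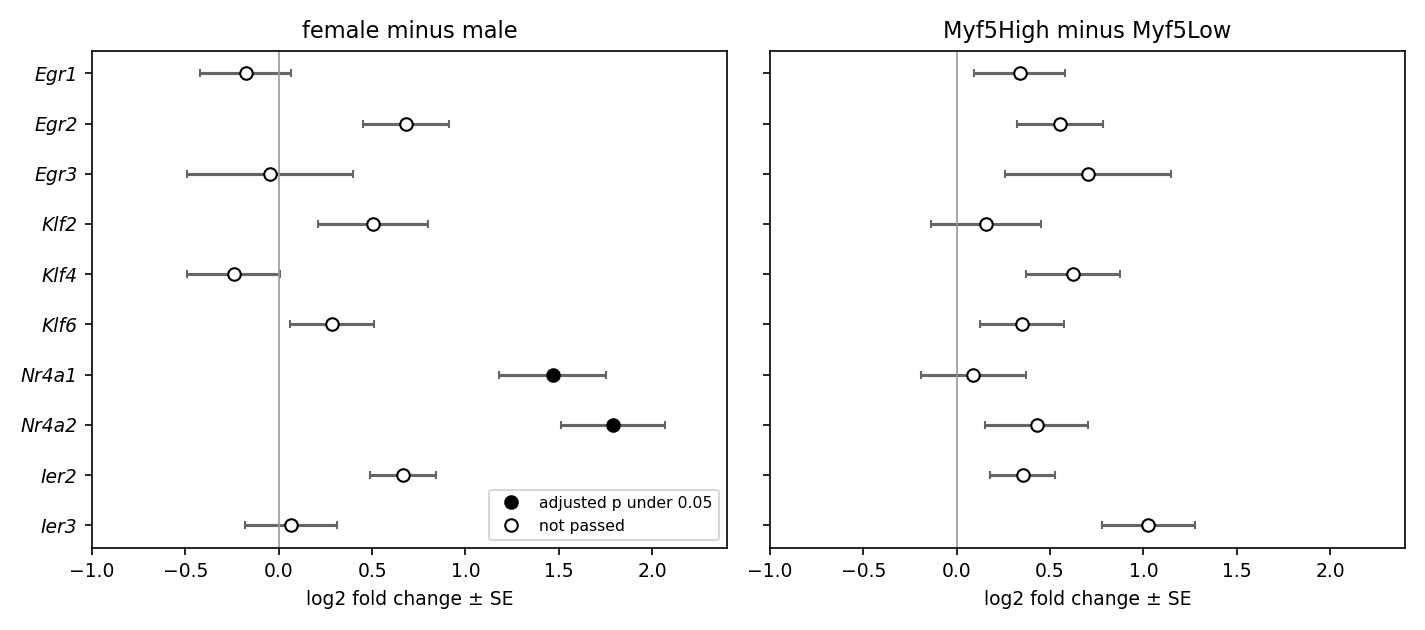
Log2 fold change of each of the 10 genes with its standard error, female minus male on the left and Myf5High minus Myf5Low on the right, from the fit to all 8 libraries. Filled points have an edgeR adjusted p under 0.05: Nr4a1 and Nr4a2 on the left, and none on the right.

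Some measures of the libraries moved with sex. The summed level of 11 endothelial markers was 341 to 596 CPM in females and 606 to 1078 CPM in males, without overlap, and 10 of the 11 had a lower fitted value in females. Of these Egfl7, an endothelial secreted factor, was called (log2 fold change -1.06, SE 0.19, edgeR adjusted p 0.00493). None of the 11 was at 0 in any library. For fibro-adipogenic markers the sums were 300 to 416 CPM in females and 424 to 971 CPM in males. Immune markers were few, at 25.2 to 96.4 CPM in females and 20.7 to 94.1 CPM in males, with Ptprc, C1qb, Adgre1, Csf1r, Itgam and Tyrobp at 0 in at least 1 library of each sex. Of 11 tested genes of myogenic commitment 1 was called, Myh3, an embryonic myosin, lower in females: it was at 0 to 6.12 CPM in females, and in males at 175 and 1.32 CPM in the Myf5High libraries and at 0.448 and 100.1 CPM in the Myf5Low ones. The summed level of 12 such genes was 146 to 1002 CPM in females and 157 to 735 CPM in males. The summed level of 8 muscle stem cell markers was 3047 to 4183 CPM in females (median 3641) and 2809 to 3505 CPM in males (median 2961), and none of them was called. Within Myf5High, Myf5 RNA itself was at 128 and 116 CPM in females and at 73.7 and 39.5 CPM in males, without overlap. Within Myf5Low it was at 25.0 and 49.9 CPM in females and at 41.9 and 28.7 CPM in males. Depth was 3140361 to 3867444 counts in females and 3477656 to 4238427 in males. The part of these measures in the higher Nr4a levels of females was not tested.

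Between the sorted fractions, the fitted value of every one of the 10 genes was higher in Myf5High, and none passed the test. The values that follow come from the contrast in view when the genes were chosen and are a description. The median log2 fold change, Myf5High minus Myf5Low, was 0.39, against -0.02 over all genes tested, of which 48.1% had a value above 0. Of the 10 genes, 0 were called at an edgeR adjusted p under 0.05, where 1.2% of all genes (141 of 11730) were. With the pool as a block, 1 of 10 was called, Ier3, where 1.16% of all genes were. Nothing is read from these counts, since the higher Ier3 was among the results known when the genes were chosen.

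Ier3, known as a stress-induced regulator of cell survival, had the largest value. In females it was at 771 and 693 CPM in the Myf5High libraries against 323 and 288 CPM in the Myf5Low ones. In males it was at 363 and 827 CPM against 226 and 459 CPM. Females separated cleanly by fraction, while the male fractions overlapped. The log2 fold change was 1.03 (SE 0.25), a 2.04-fold higher mean, and 1.01 (SE 0.19) with the pool as a block. Within the pools the log2 differences were 1.25 and 1.26 in females and 0.68 and 0.85 in males, so Ier3 was higher in Myf5High in all 4. Without male Myf5High replicate 2 the fitted value was 0.67, and without male Myf5Low replicate 2 it was 1.33.

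Egr3, Klf4 and Egr2 had the next fitted values by size. Egr3 had a log2 fold change of 0.70 (SE 0.45), Klf4, a factor known from the reprogramming of cells to pluripotency, 0.62 (SE 0.25), and Egr2 0.55 (SE 0.23). Single libraries moved these values: Klf4 was 0.23 without male Myf5High replicate 2 and 0.88 without male Myf5High replicate 1 or female Myf5Low replicate 1. Egr3 was 0.30 without female Myf5High replicate 1, 0.34 without male Myf5Low replicate 2 and 1.48 without male Myf5Low replicate 1, and Egr2 ran from 0.34 to 0.71. Egr2 was the other gene that was higher in Myf5High in all 4 pools, though by only 0.01 in female pool 2. Together with Ier3 this made 2 of 10 genes, where 7.51% of all genes were higher in Myf5High in all 4 pools. None of the 10 had Myf5High libraries entirely above Myf5Low libraries, where 2.36% of all genes did.

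The remaining 6 genes had fitted values of 0.43 or less. Nr4a2 had 0.43 (SE 0.27), Ier2 0.35 (SE 0.18), Klf6 0.35 (SE 0.22), Egr1 0.34 (SE 0.24), Klf2 0.16 (SE 0.29) and Nr4a1 0.09 (SE 0.28). Egr1, the most abundant gene, ran from 5227 to 13392 CPM in Myf5High and from 5221 to 8522 CPM in Myf5Low, and the male Myf5High libraries held both ends of the Myf5High range. Klf6 ran from 528 to 1102 CPM in Myf5High and from 552 to 949 CPM in Myf5Low. Nr4a2 was 0.19 without male Myf5Low replicate 1, 0.20 without female Myf5Low replicate 1, and 0.78 and 0.77 without replicate 2 of these groups. Klf6 was 0.06 without male Myf5High replicate 2. Leaving out 1 library turned the sign of Egr1 (lowest value -0.08), Klf2 (-0.29) and Nr4a1 (-0.43), and of no other gene of the 10.

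Libraries were then paired by pool number, which the labels do not state outright to mean the same mice. The deviations of such pairs from their group means correlated by only 0.03 in females and -0.00027 in males. The pools so paired differed from each other. In female pool 1 all 10 genes were higher in Myf5High, with a median log2 difference of 0.99, and in female pool 2 it was 9 of 10 with a median of 0.53. In male pool 1 it was 5 of 10 with a median of 0.08, and in male pool 2 it was 7 of 10 with a median of 0.74. Over all tested genes between 47.2% and 49.7% were higher in Myf5High in a pool. Nr4a1 had the widest spread over the pools, from 1.30 in female pool 1 to -1.85 in male pool 2, and Klf2 ran from 1.41 to -0.88 in the female pools alone.

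**Figure D4:**
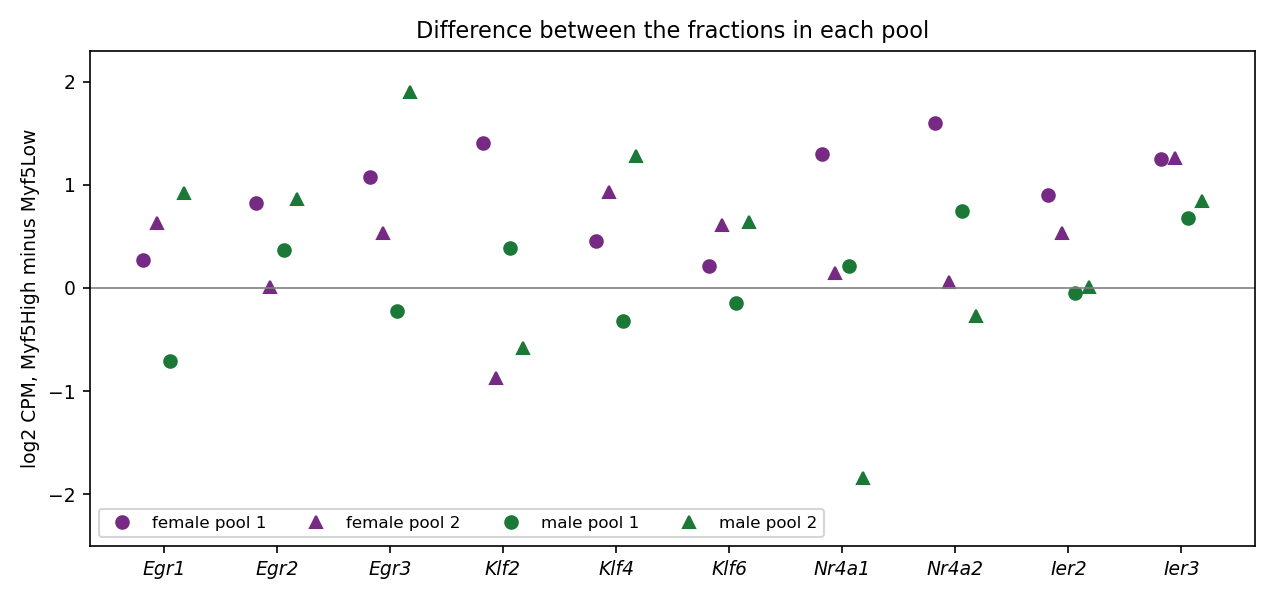
Difference between the sorted fractions in each pool, as log2 CPM in Myf5High minus log2 CPM in Myf5Low, for the 10 genes. Each point is 1 pair of libraries with the same sex and pool number, coloured by sex and shaped by replicate number. Ier3 has all 4 points well above 0, and the points of Nr4a1 run from 1.30 to -1.85.

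Taken by sex, 9 of the 10 genes had a larger fitted value in females than in males, Egr2 (0.46 and 0.64) being the other. The interaction test further on called none of these differences, and leaving out single libraries moved that count, as given below. All 10 genes were above 0 in females, with a median of 0.68, and 7 of 10 in males, with a median of 0.29. In females 0 of 10 genes were called, where 0.332% of all genes were, and 0 of 10 with the pool as a block, where 0.281% were. In males 0 of 10 were called, where 0.171% of all genes were. The signs below 0 in males were those of Nr4a1 (-0.61, SE 0.41), Klf2 (-0.05) and Ier2 (-0.02). The values of both sexes rest on single libraries. Without male Myf5High replicate 2 the male value of Nr4a1 was -0.032, those of Egr1, Klf4 and Klf6 turned to -0.58, -0.18 and -0.25, and 5 of 10 genes were above 0 with a median of 0.014. In males Nr4a1 was -1.66 without male Myf5High replicate 1, and the median was 0.60. Without female Myf5High replicate 1 the female values were 0.23 for Nr4a1, 0.12 for Egr3, 0.04 for Egr2 and -0.53 for Klf2, with a median of 0.26. In that fit Egr3, Klf2, Klf4 and Klf6 joined Egr2 in having the larger value in males, where the median was 0.30. Without male Myf5High replicate 1, Egr1, Klf4, Klf6 and Ier3 joined Egr2 in this way. So did Egr1, Klf4 and Klf6 without female Myf5Low replicate 2. Egr3 and Klf4 did so without male Myf5Low replicate 1, and Klf6, Nr4a2 and Ier3 without male Myf5Low replicate 2.

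The interaction of sex and fraction tested whether the fractions differed otherwise in females than in males. None of the 10 genes passed, and 0% of all 11730 genes were called by edgeR, with 533 at an unadjusted p under 0.05 where DESeq2 called 2. Of the 10, the largest value was that of Nr4a1, 1.41 (SE 0.57, unadjusted edgeR p 0.023, adjusted p 1.00), followed by Ier2 with 0.75 (unadjusted edgeR p 0.0485, adjusted p 1.00). It is the difference between the Nr4a1 values of 0.79 in females and -0.61 in males, both of which moved with single libraries as given above. With 2 libraries per group the interval of Nr4a1 was wide, 0.30 to 2.52. Its value was 0.83 without male Myf5High replicate 2, 0.85 without female Myf5High replicate 1 and 2.45 without male Myf5High replicate 1 (edgeR adjusted p 0.0754).

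Across the 8 libraries the 10 genes did not move as one. Over the 45 pairs the median Pearson correlation of log2 CPM was 0.42, from -0.38 to 0.94, with 11 pairs above 0.7 and 8 below 0. These are descriptions over 8 libraries that share pools and sexes. Egr1 and Klf4 had the highest value, 0.94, and both went with Klf6 (0.79 each), which in turn went with Ier3 (0.75). Nr4a1, Nr4a2 and Ier2 went together as well (0.78 to 0.85), with Egr2 close to Nr4a2 (0.79) and Ier2 (0.78), and with Klf2 close to Nr4a1 (0.73). Egr2 and Klf6 (0.71) crossed the 2 sets. The values of Klf2 rest on female Myf5High replicate 1: without it, those with Nr4a1, Ier2 and Egr2 were 0.52, -0.04 and -0.15, against 0.73, 0.57 and 0.47 with it. Its values with Klf4, Egr1 and Klf6 went the other way, from -0.31, -0.37 and -0.06 to -0.93, -0.91 and -0.83. Without male Myf5High replicate 2 they were instead 0.05, -0.05 and 0.19. Leaving out female Myf5High replicate 1 moved 17 of the 45 pairs by more than 0.3, and leaving out male Myf5High replicate 2 moved 11. Leaving out any other library moved 0 or 1.

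The lowest values lay between these sets: -0.38 for Klf4 and Nr4a1, and -0.37 for Egr1 and Nr4a1. The library labelled male Myf5High replicate 2 had the highest levels of Egr1 (13392 CPM), Klf4 (2207 CPM) and Ier3 (827 CPM) and the lowest of Nr4a1 (25.3 CPM) and Klf2 (38.1 CPM). Without it the correlations of Klf4 and of Egr1 with Nr4a1 were both 0.38, so their sign rests on that library. Without female Myf5High replicate 1 they were -0.77 and -0.69. That of Egr1 and Klf4 was 0.88 without male Myf5High replicate 2 and 0.94 without female Myf5High replicate 1.

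**Figure D5:**
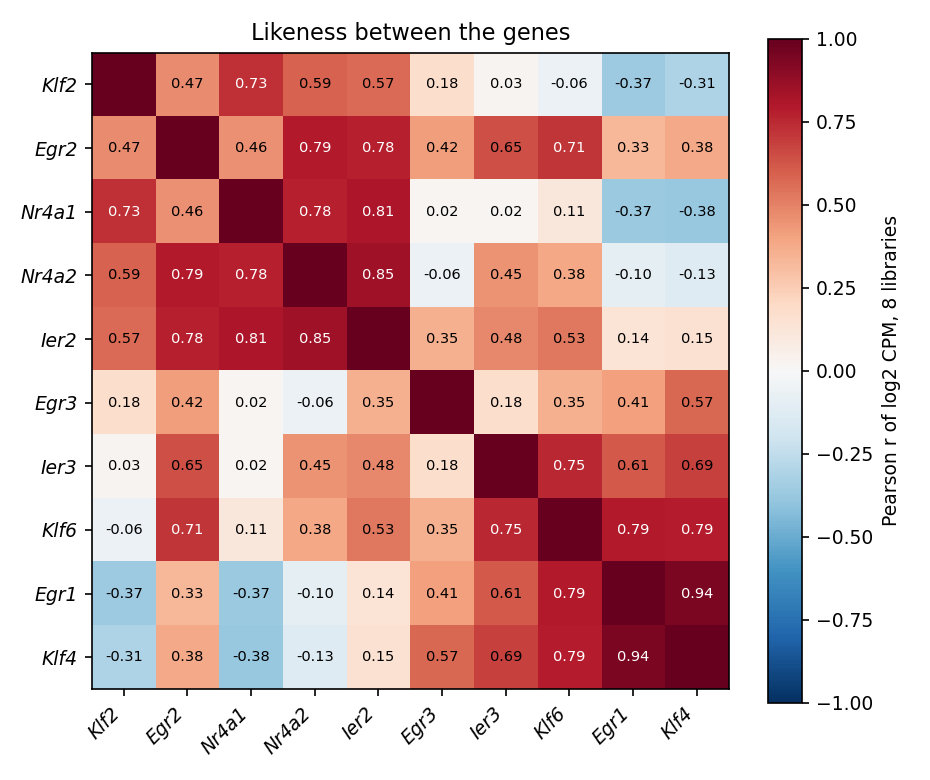
Pearson correlation of log2 CPM over the 8 libraries for each pair of the 10 genes, from -1 in blue to 1 in red, with the genes ordered by clustering. Egr1, Klf4, Klf6 and Ier3 lie in one corner and Klf2, Egr2, Nr4a1, Nr4a2 and Ier2 in the other, and Egr3 has no value above 0.57.

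Other genes were ranked by their likeness to the mean standardised level of the 10. Among 9539 genes compared over the 8 libraries, the highest Pearson correlations were those of Zswim3 (0.973), Iqgap1 (0.959), Zc3h12a (0.944), Fbxo6 (0.930) and Pi4k2b (0.927). Zc3h12a encodes an RNase that degrades inflammatory mRNAs, and Iqgap1 encodes a scaffold of the cytoskeleton. The mean standardised level was highest in female Myf5High replicate 1 (1.35), and 0.37 in the other library of that group. It was 0.24 in male Myf5High replicate 2, and below 0 in the other 5 libraries. The 5 correlations are the highest of 9539 over only 8 libraries. How far they rest on female Myf5High replicate 1 was not tested. Zswim3 was at a low level, 3.82 to 11.6 CPM.

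Genes of the same families and pathways were compared between the sexes. Of 18 further Egr, Klf, Nr4a and Ier genes, 13 were tested and 0 were called, with a median log2 fold change of 0.22. Nr4a3, the remaining receptor of the Nr4a family, had 0.41 (SE 0.26, edgeR adjusted p 0.51) and levels of 17.1 to 35.6 CPM. Klf16 had the highest value of that list, 1.05 (edgeR adjusted p 0.368). Of 7 tested AP-1 genes, the Fos and Jun partners that are induced by the same stimuli, 0 were called and the median was 0.17. Nab1 and Nab2, the corepressors of Egr proteins, had -0.06 and -0.13 and were not called.

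Of 23 tested other early response genes, 21 had a value above 0 and 4 were called, all higher in females, where 48.7% of all genes had a value above 0 and 1.65% were called. These were Dusp6, an ERK phosphatase (1.61, SE 0.30, edgeR adjusted p 0.00883), Dusp1, a phosphatase of stress kinases (0.98, SE 0.19, 0.0109), Btg2, an antiproliferative gene (0.91, SE 0.17, 0.0105), and Ccn1, a matrix signalling protein (1.12, SE 0.22, 0.0133). Within Myf5High, Dusp6 differed by 2.54 (edgeR adjusted p 0.0114), and within Myf5Low by 0.67 (edgeR adjusted p 0.805). Btg2, Ccn1 and Dusp1 were called within neither fraction, with 0.98, 1.40 and 1.19 within Myf5High (edgeR adjusted p 0.0559 to 0.0834) and 0.83, 0.84 and 0.77 within Myf5Low (0.308 to 0.544). The interaction called none of the 4. The median of that list was 0.61, against -0.02 over all genes. Without female Myf5High replicate 1, the library with the highest mean early gene level, Btg2, Ccn1 and Dusp1 were no longer called, with values of 0.78, 0.85 and 0.91. Without female Myf5Low replicate 2, Dusp1 (0.81) and Dusp6 (1.18) were not called.

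Of 15 genes for kinases and factors that induce early genes, 2 were called between the sexes, where 1.65% of all genes were. Srf, which encodes the factor that binds CArG boxes, was higher in females (0.91, SE 0.21, edgeR adjusted p 0.0329), and Mef2c was lower (-1.30, SE 0.32, edgeR adjusted p 0.0490). Both calls were thin: each was made in 3 of 8 fits that left out 1 library, and neither within a single fraction (Srf 1.09 and 0.73, Mef2c -2.12 and -0.48 in Myf5High and Myf5Low). Creb1, the gene of CREB, had -0.32 (SE 0.19, edgeR adjusted p 0.491).

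Between the fractions, which share libraries with the comparison of the sexes, 2 of the 23 other early response genes were called, both higher in Myf5High, where 1.2% of all genes were called. That early genes as a list were higher in this contrast was known when the list was chosen. Trib1, a pseudokinase gene, had 1.72 (SE 0.22), and Csrnp1 had 1.39 (SE 0.32). Trib1 was called in 8 of 8 fits that left out 1 library and Csrnp1 in 3 of 8, with 0.81 without male Myf5High replicate 2. The median of the list was 0.43, that of the 7 AP-1 genes 0.32 and that of the 13 further family genes 0.14, with 0 called in the last 2 lists. Summed myogenic commitment markers were 146 to 735 CPM in Myf5High and 389 to 1002 CPM in Myf5Low. The highest Myf5High sum is that of male Myf5High replicate 1. Myog, the factor of differentiating myoblasts, was called lower in Myf5High, at 0 to 1.27 CPM against 93.7 to 533 CPM. So was the fusion gene Mymk, at 0 against 4.30 to 67.7 CPM. In the fit without a pool block, no other tested gene of that list was called. Ckm (0.23) and Tnnc1 (3.42) alone had fitted values above 0 there. In males alone Actc1, Tnnc1, Ckm, Myh3, Acta1 and Tnnt2 were above 0 (0.03 to 1.32). Endothelial markers were 341 to 665 CPM in Myf5High and 468 to 1078 CPM in Myf5Low, with 0 of 11 called. The exception to their lower fitted values in Myf5High was the angiopoietin receptor gene Tek, at 0.99 (edgeR adjusted p 0.0577) and called with the pool as a block (1.02, edgeR adjusted p 0.0288). Immune markers were 20.7 to 56.9 CPM in Myf5High and 52.2 to 96.4 CPM in Myf5Low. Of 7 tested immune markers 1 was called, the macrophage gene C1qa, lower in Myf5High (2.16 to 7.11 against 17.4 to 27.1 CPM). The sums of 8 mural markers overlapped, at 411 to 549 CPM in Myf5High and 410 to 793 CPM in Myf5Low. Of these 1 was called, the smooth muscle actin gene Acta2, lower in Myf5High (40.1 to 68.5 against 139 to 335 CPM), while Mcam (0.91), Notch3 (0.62) and Cspg4 (0.24) had fitted values above 0. Muscle stem cell markers summed to 2849 to 4183 CPM in Myf5High and 2809 to 3185 CPM in Myf5Low. Chrdl2 (1.33), Myf5 (1.19) and Calcr (0.89) were called higher in Myf5High, Calcr not with the pool as a block. Itga7 (-0.47) and Vcam1 (-0.004) had fitted values below 0. Glial markers were 64.2 to 110 CPM in Myf5High and 80.2 to 172 CPM in Myf5Low. The part of all these markers in the values of the 10 genes was not tested.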

How the data were processed

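The authors deposited raw counts: whole-number reads per Ensembl mouse gene, with no normalisation. Polyadenylated RNA was sequenced as single reads, per the labels' protocols. Reads were counted with HTSeq 2.16.2 and the build was GRCm38, per the submitters' processing notes. The aligner, annotation release and strand setting are not given in the sources used here. HTSeq's tallies of unassigned reads, 42.2 to 45.5% of each library, stayed out of library sizes. A single gene, Gm42418, took 20.1 to 28.8% of gene counts. Of 27554 identifiers, 27518 matched GENCODE M21 (GRCm38), which gave symbols and exon lengths. No exon of the 10 genes overlaps another gene there. Positions are given for 9 of the 10, Egr2 chr10:67535475-67542188, Egr3 chr14:70077203-70082614, Klf2 chr8:72319033-72321656, Klf4 chr4:55527143-55532466, Klf6 chr13:5861482-5870394, Nr4a1 chr15:101254269-101274795, Nr4a2 chr2:57106830-57124003, Ier2 chr8:84661331-84662852 and Ier3 chr17:35821684-35822923. Promoter windows and motif shares come from RefSeq on GRCm38.p6.

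The tests used edgeR 4.0.16 in R 4.3.3: filterByExpr (minimum count 10, minimum total 15), TMM scaling, 1 mean per group over 8 libraries and two-sided quasi-likelihood tests, adjusted by Benjamini-Hochberg over 11730 genes and called under 0.05. The common biological coefficient of variation was 0.36. Confidence intervals of log2 fold changes and floors of 3 counts cover this spread and counting error alone. Replicates came from separate pools and differed by more than sampling noise (chi-square per degree of freedom 7.43 to 22.6). Correlations used log2 CPM with a prior count of 2. Scripts were tested on simulated data.

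The genes and lists were chosen with earlier results of these data known, so no p is printed for the 10 genes between the fractions. Groups came from the sample titles. Myf5High and Myf5Low libraries of 1 sex and number share a pool number in the labels and were taken as the same mice, which the labels do not state outright. The deviations of such pairs from their group means correlated by 0.03 in females and -0.00027 in males. Named were all 10 genes, list genes that were called or extreme, and the 5 genes most like the 10 at a mean of at least 5 CPM. The other settings tried were RLE scaling, library totals only, no filter, a filter at a mean of 50 counts, DESeq2 1.42.0, the pool block, summed pools, an additive model, fits of 4 libraries and leaving out each library. Contrasts of the sexes within a fraction, also without each library of that fraction, and likeness without each library were added after seeing the data.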

Additional observations from a re-analysis of the deposited data

Results flagged for a closer look

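Egr2 in female Myf5High replicate 1 lay far from the other female libraries: it was at 110 CPM, and the other 3 were at 61.8 to 66.5 CPM, so that the gap was 0.904 of the whole range of the 4. It was the only one of 40 groups of 4 libraries, over the 10 genes, both fractions and both sexes, to pass Dixon's limit, which chance passes in about 1 of 20 groups.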

How the results depend on the processing

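Nr4a2 was called between the sexes in all 15 planned settings and Nr4a1 in 14, with values of 1.44 to 2.14 and 1.18 to 1.99. Within Myf5Low alone the number of the 10 genes called was 0. Ier2 was called in 3 of the planned settings, with no filter (0.65, edgeR adjusted p 0.0430), at a mean of 50 counts (0.67, edgeR adjusted p 0.0423) and by DESeq2 (0.65, adjusted p 0.0116). No paired analysis was possible for the sexes because each pool holds 1 sex, so pools were summed instead. Apart from the fits that left out 1 library, Ier3 was the 1 gene of the 10 called between the fractions in any setting. It was called with the pool as a replicate block, where 1.16% of all genes were, with no filter, by DESeq2 and in the additive model. In females it was called with no filter and in the fit of 4 libraries. Nothing is read from these calls, since the higher Ier3 was known when the genes were chosen. The block changed no other call of the 10. Leaving out 1 library gave fitted values between the fractions of 0.67 to 1.33 for Ier3 and of 0.23 to 0.88 for Klf4. The median of the 10 then ran from 0.26 to 0.90 in females and from 0.11 to 0.56 between the sexes. Such a fit leaves a group with 1 library, assumed to vary like the others.

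Signs below or near 0 were not steady. Between the sexes Egr3 turned to 0.022 with summed pools and 0.17 within Myf5High, and Ier3 to -0.17 within Myf5Low. Leaving out 1 library gave -0.44 to 0.24 for Egr1, -0.46 to 0.72 for Egr3, -0.51 to 0.15 for Klf4 and -0.17 to 0.43 for Ier3. In the interaction it gave -0.35 to 1.01 for Egr1, -0.61 to 0.14 for Egr2, -1.11 to 1.17 for Egr3, -0.48 to 0.96 for Klf2, -0.48 to 0.82 for Klf4, -0.36 to 0.63 for Klf6, -0.10 to 1.28 for Nr4a2, 0.83 to 2.45 for Nr4a1, 0.55 to 0.91 for Ier2 and -0.13 to 1.18 for Ier3. The causes were not tested. Over all genes, calls between the fractions numbered 291 with no filter and 234 by DESeq2 against 141, those between the sexes 477 and 371 against 194, and those of the interaction 14 and 2 against 0. Within females they were 167, 111 and, in the fit of 4 libraries, 77 against 39. Within males they were 111, 80 and 2 against 20, and 10 by library totals. Library totals alone moved the median of all genes between the fractions to -0.11, and gave 1 interaction call. With 2 pools per sex, differences between mice of 1 sex cannot be told apart from those between pools.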
